A study of Mus musculus with 12 samples.

Results

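The adipocyte programme genes described here are 10 genes chosen by name from the 47517 gene symbols of the count table: Pparg, Cebpa and Klf15 (transcription factors), Fabp4 and Fabp5 (fatty acid-binding proteins), Lpl and Cd36 (fatty acid release and uptake), Plin1 and Plin2 (lipid droplet coat proteins) and Adipoq (the hormone adiponectin). All 10 symbols were found in the table, and 6 of them (Pparg, Cebpa, Fabp4, Fabp5, Plin2 and Klf15) had enough counts to be tested. They were measured by sequencing ribosome-depleted total RNA from mouse embryonic fibroblasts, the connective tissue cells of the embryo, taken from C57BL/6 embryos at E13.5 and immortalised with the SV40 large T antigen. The study asked which transcripts change when Ssb1 (gene symbol Nabp2) and Ssb2 (Nabp1), are lost; both proteins bind single-stranded DNA. The 12 libraries formed 6 groups of 2. Cells without Cre (labelled Cre -ve) that were Fl/Fl for both Ssb1 and Ssb2, here called Cre-negative, were untreated, given ethanol as the vehicle, or given 4-hydroxytamoxifen (4-OHT) for 5 days. Cells with floxed Ssb1 and Ssb2 that also carried Rosa-CreERT2, a Cre recombinase that 4-OHT activates, received the same treatments (Cre-positive). The labels give untreated cells no time in culture, so ethanol itself and the 5 days that go with it cannot be told apart in contrasts with untreated cells, and an ethanol effect below means both. The Ssb1 allele of the Cre-positive cells is written Fl/F in the genotype label and Flox/Flox in the protocol. Every group therefore carried the floxed alleles and the SV40 large T antigen, and no group was given an adipogenic cocktail according to the labels. Neither the number of embryos behind each line nor whether paired libraries are separate cultures is stated in the labels. The p-values therefore rest on library-to-library spread, part or all of which may be technical.

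Fibroblasts of the embryo can be turned into fat cells in culture. In that process the early factors C/EBPβ and C/EBPδ (Cebpb, Cebpd) switch on Pparg and Cebpa, which then maintain each other and switch on the genes of lipid storage. Pparg codes for PPARγ, a nuclear receptor that binds DNA with RXR and is required for fat cell formation, and Cebpa codes for the factor C/EBPα. Fabp4 and Plin1 are targets of PPARγ. Plin2 and Fabp5 are used in many cell types outside fat.

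Library totals ran from 20201855 to 36367012 counts. The first principal component of log2 CPM (counts per 1000000 counts of the library, scaled by TMM, the trimmed mean of M values) took 75.4% of the variance and separated the Cre-negative from the Cre-positive libraries. Nabp1 and Nabp2 checked the labels: in Cre-positive cells they were lower with 4-OHT than with ethanol by log2 changes of -2.05 and -2.10, and the 4-OHT libraries held 3.40 to 5.09 CPM of them against 14.5 to 22.6 CPM with ethanol. CreERT2 activity and the loss of Nabp1 and Nabp2 coincide in this group and cannot be told apart. The Cre-negative and Cre-positive lines differ in Cre and in whatever else differs between the lines, which cannot be told apart either. Nabp1 and Nabp2 were themselves lower in Cre-positive than in Cre-negative cells without 4-OHT. Mean Nabp1 was 15.7 against 26.3 CPM untreated and 15.2 against 25.5 CPM with ethanol. Mean Nabp2 was 21.6 against 27.0 CPM untreated and 21.2 against 26.3 CPM with ethanol. All changes below are log2 changes from edgeR's quasi-likelihood test over 17609 genes with Benjamini-Hochberg adjustment, a gene being called at an adjusted p under 0.05, and group values are mean ± SD of CPM over 2 libraries.

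The cells labelled as fibroblasts had few counts from genes that define mature fat cells. Over the 12 libraries together, Adipoq had 7 counts, Plin1 had 4, Cidec (a droplet fusion protein) had 6, Lep (leptin) had 0, Retn (resistin) had 24 and Cfd (adipsin) had 61. Pparg and Fabp4, which are also used as fat cell markers, had 7109 and 7437 counts. The transcripts of Pparg and Fabp4 were thus measured in cells in which most other markers of the mature adipocyte were near 0.

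Levels of different genes were compared per kilobase of coding transcript, as the mean CPM per kb over the 12 libraries. Plin2 had the highest level at 79.3 CPM per kb, followed by Fabp5 at 60.0, Fabp4 at 25.9, Pparg at 10.5 and Cebpa at 1.88. This mean pools both lines, and in each Cre-positive group Cebpa was above Pparg (1.69 against 0.706 CPM per kb untreated, 1.63 against 0.730 with ethanol and 2.48 against 0.884 with 4-OHT). Klf15 (0.159), Lpl (0.0510), Adipoq (0.0161), Cd36 (0.00531) and Plin1 (0.00397) were lower still. In Cre-negative untreated cells Fabp5 (83.6 ± 1.3 CPM per kb, SD, n = 2) and Plin2 (80.8 ± 1.6) were about level. The Fabp5 level leaves out reads given to its near-identical copies, described below. If those reads came from Fabp5, its place below Plin2 could turn. With the merged length of all annotated exons in place of the coding transcript, Pparg (7.57 CPM per kb) came above Fabp4 (5.17) in the mean, because the annotated exons of Fabp4 cover 4489 bases against 896 in its coding transcript. By group, that order turned with the length in Cre-negative cells (untreated 12.8 for Pparg and 10.8 for Fabp4 by merged exons, 17.7 and 54.0 by coding transcript). In the Cre-positive groups Fabp4 was above Pparg by either length.

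Pparg differed most between the lines. It lies on chromosome 6 at 115360951-115490399, plus strand (GRCm38, GENCODE M21; 13 merged exons). Untreated Cre-negative cells held 37.5 and 37.9 CPM of Pparg and untreated Cre-positive cells held 1.38 and 1.62 CPM. With ethanol the values were 44.2 and 44.5 CPM in Cre-negative cells and 1.69 and 1.41 CPM in Cre-positive cells. With 4-OHT they were 49.1 and 45.2 CPM against 1.73 and 2.03 CPM. All 6 Cre-negative libraries lay above all 6 Cre-positive ones, and the lowest Cre-negative library (37.5 CPM) was far above the highest Cre-positive library (2.03 CPM). Pparg was 25.3-fold lower in Cre-positive than in Cre-negative cells when untreated (log2 -4.66, SE 0.113, adjusted p = 7.82e-19), 28.6-fold lower with ethanol (log2 -4.84, adjusted p = 6.99e-20) and 25.1-fold lower with 4-OHT (log2 -4.65, adjusted p = 3.36e-20). In bulk RNA, fewer cells that express a gene and less RNA of it per cell cannot be told apart. Among the 17609 genes tested, 289 had a larger untreated difference between the lines than Pparg.

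Within Cre-negative cells, Pparg was higher with ethanol than untreated (44.3 ± 0.24 against 37.7 ± 0.22 CPM; log2 0.23, SE 0.0625, adjusted p = 0.00836) and higher with 4-OHT than untreated (47.2 ± 2.7 CPM; log2 0.32, adjusted p = 0.000756). The ethanol call was lost without ethanol library 10 (log2 0.23, adjusted p = 0.0550) and with DESeq2 (log2 0.24, adjusted p = 0.0531). 4-OHT and ethanol did not differ by the test in Cre-negative cells (log2 0.086, adjusted p = 0.471, 95% interval -0.041 to 0.21). In Cre-positive cells Pparg rested on 33 to 61 counts a library, and none of the 3 contrasts of treatments passed. The change with 4-OHT against ethanol was log2 0.27 (SE 0.181, adjusted p = 0.285, 95% interval -0.10 to 0.65), that against untreated was 0.33 (adjusted p = 0.225) and that of ethanol against untreated was 0.056 (adjusted p = 0.918). The first interval reaches past the change of Cebpa in the same contrast (log2 0.60) and stops short of that of Fabp4 (0.67). The 4-OHT effects on Pparg differed between the lines by log2 0.19 (adjusted p = 0.516, 95% interval -0.21 to 0.59).

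The Pparg gene has several annotated start sites, and the gene total does not show which of them gave the RNA. RefSeq (GRCm38.p6) gives promoter windows for 7 of the 10 members, 9 windows in all, each from 250 bases before to 50 bases after a start. Of the 3 windows of Pparg, one near the 5′ end of the gene and one farther inside it are shown, with that of Cebpa. Both genes code for factors that act in fat cell formation, and Pparg differed most between the lines among the tested members. Whether these factors drive the other members in these cells was not tested. Only bases outside annotated exons are printed, 5′ to 3′ on the plus strand, with capitals for the motif matches:
Pparg start at 115362349, chr6:115362099-115362291: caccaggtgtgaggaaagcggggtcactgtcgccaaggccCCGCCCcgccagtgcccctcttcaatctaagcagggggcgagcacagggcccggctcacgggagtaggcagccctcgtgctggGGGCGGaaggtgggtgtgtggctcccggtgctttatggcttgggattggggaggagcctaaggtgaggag
Pparg start at 115422066, chr6:115421816-115422065: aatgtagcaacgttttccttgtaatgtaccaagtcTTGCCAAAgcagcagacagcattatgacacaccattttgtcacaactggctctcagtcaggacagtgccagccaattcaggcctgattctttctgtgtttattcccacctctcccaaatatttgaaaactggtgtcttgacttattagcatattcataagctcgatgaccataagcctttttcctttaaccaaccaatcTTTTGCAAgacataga
Cebpa start at 35119293, chr7:35119043-35119292: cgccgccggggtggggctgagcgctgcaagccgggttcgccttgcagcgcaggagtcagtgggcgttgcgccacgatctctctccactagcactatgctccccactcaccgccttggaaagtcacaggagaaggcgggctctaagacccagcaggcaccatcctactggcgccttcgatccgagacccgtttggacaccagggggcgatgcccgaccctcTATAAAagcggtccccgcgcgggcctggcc

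Both strands of each window were searched for TTGCNNAA (a C/EBP-type motif), TGANTCA (AP-1), the direct repeat DR1 bound by PPAR with RXR, AGGTCA (its half-site), TATAAA and GGGCGG (GC box). The inner Pparg window held 2 C/EBP-type matches, which begin at positions -215 and -16 from the start. The outer Pparg window held GC boxes at -210 and -127, and had 2 further matches in bases not printed here. These were a half-site at -9 on the plus strand and a TATAAA match at -29 on the minus strand, opposite to the gene. The Cebpa window held a TATAAA match at -30 on the plus strand, that of the gene. The Pparg window that is not printed has its start at 115361144, nearer the 5′ end than the outer one. It held a half-site at -28 on the plus strand and a GC box at -177 on the minus strand. No window of a member held a TGANTCA or a DR1 match. Over 32851 mouse promoter windows, 10.8% held TTGCNNAA, 7.81% TGANTCA, 0.0396% DR1, 16.3% AGGTCA, 13.6% TATAAA and 35.7% GGGCGG. The windows differ in composition: the inner Pparg window had 40.3% G and C and 2 CpG pairs, the outer one had 62.7% and 13, and the Cebpa window had 67.3% and 29. A match describes these letters only.

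An antisense gene, Gm44079 (chromosome 6, 115451815-115464990), lies inside the Pparg span on the opposite strand. It had 7 to 12 counts in each Cre-negative library, 52 in all, and 0 counts in all 6 Cre-positive libraries, which makes it at least 18.4-fold lower there against a floor of 3 counts over the 6 libraries. No source used here gives the strand setting of the counting, so reads of Gm44079 and of Pparg introns cannot be told apart with certainty. Its count is small beside the 6831 counts of Pparg in the same Cre-negative libraries.

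**Figure D1:**
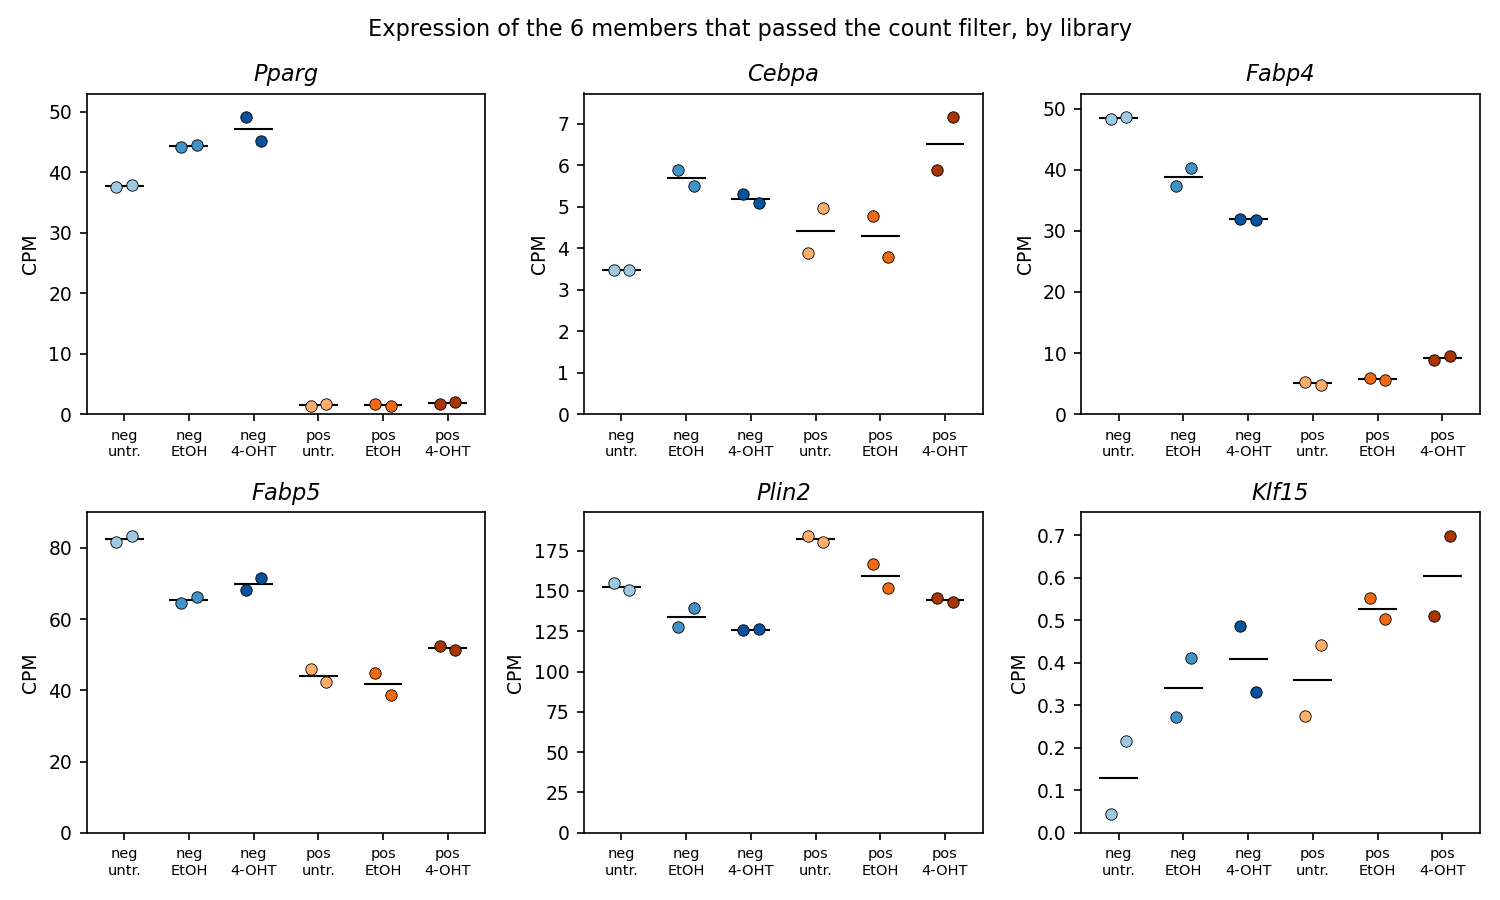
CPM (vertical axis) of the 6 tested members in each library (points) of the 6 groups, with the group mean as a line; neg and pos are Cre-negative and Cre-positive cells, untr. is untreated and EtOH is ethanol. Pparg lies between 37.5 and 49.1 CPM in the Cre-negative libraries and between 1.38 and 2.03 CPM in the Cre-positive ones, and Fabp4 shows the same order of the lines with a rise to 8.83 and 9.49 CPM in Cre-positive cells given 4-OHT.

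Cebpa (chromosome 7, 35119293-35121928, plus strand, 1 exon) was low in both lines and did not follow Pparg. Untreated Cre-negative cells held 3.48 CPM of Cebpa in both libraries, and untreated Cre-positive cells held 3.89 and 4.96 CPM. With ethanol the libraries held 5.90 and 5.51 CPM in Cre-negative and 4.79 and 3.79 CPM in Cre-positive cells. With 4-OHT they held 5.30 and 5.09 CPM in Cre-negative and 5.89 and 7.16 CPM in Cre-positive cells. The highest library was a Cre-positive one given 4-OHT, and the ranges of the lines overlapped.

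In Cre-positive cells Cebpa rose 1.52-fold with 4-OHT against ethanol (log2 0.60, SE 0.139, adjusted p = 0.00167). Without ethanol library 4 the change was log2 0.44 with adjusted p = 0.0506. Against untreated cells the 4-OHT change was log2 0.57 (adjusted p = 0.00364), which did not pass without untreated library 7 (log2 0.37, adjusted p = 0.128) or 4-OHT library 12 (log2 0.43, adjusted p = 0.0565). In Cre-negative cells the 4-OHT change against ethanol was log2 -0.14 (adjusted p = 0.658). The lines' 4-OHT effects on Cebpa differed by log2 0.74 (SE 0.200, adjusted p = 0.00827), and log2 0.57 with adjusted p = 0.0575 without ethanol library 4.

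Cebpa was also higher in Cre-negative cells given ethanol than in untreated ones (5.70 ± 0.28 against 3.48 ± 0.0026 CPM; log2 0.71, SE 0.156, adjusted p = 0.00180). It was higher with 4-OHT than untreated there (log2 0.57, adjusted p = 0.0132), but leaving out any single library of these 4 took the adjusted p to between 0.0553 and 0.0816. Between the lines, Cebpa was log2 0.33 in untreated (adjusted p = 0.111), -0.41 in ethanol (adjusted p = 0.0206) and 0.32 in 4-OHT cells (adjusted p = 0.0452), positive minus negative. The ethanol difference was lost with DESeq2 (adjusted p = 0.0999), without library 4 (adjusted p = 0.247) and without library 9 (adjusted p = 0.0992). The 4-OHT difference was lost with DESeq2 (adjusted p = 0.171) and without library 5 (0.103), 6 (0.213) or 12 (0.344, all adjusted p), and the untreated difference passed without library 7 (log2 0.51, adjusted p = 0.0464). The antisense gene Gm45091 (35118044-35119605) overlaps the start of Cebpa in the annotation and has no counts under that symbol here. With the strand setting not given, reads of Gm45091 in that overlap and reads of Cebpa cannot be told apart.

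Klf15 (chromosome 6, 90462576-90475238, plus strand), a Krüppel-like factor that acts late in fat cell formation, was near the lower limit of what could be tested. It had 1 and 6 counts in untreated, 7 and 12 in ethanol-treated and 11 and 10 in 4-OHT-treated Cre-negative cells. In Cre-positive cells it had 7 and 9 counts untreated, 15 and 15 with ethanol and 18 and 21 with 4-OHT. Its 4-OHT change against ethanol in Cre-positive cells was log2 0.18 (SE 0.387, adjusted p = 0.747), and its 95% interval of -0.62 to 0.99 spans changes as large as those of Cebpa and Fabp4. Klf15 was called in 0 of 11 comparisons by edgeR and by DESeq2, and 2 had an unadjusted edgeR p under 0.05. The untreated difference between the lines was log2 1.32 (adjusted p = 0.0958), which passed without library 2 (log2 2.87, adjusted p = 0.0336), where untreated Cre-negative cells are left with a library of 1 count.

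Fabp4 (chromosome 3, 10204088-10208576, minus strand), the fatty acid carrier of fat cells and macrophages, differed between the lines in the same direction as Pparg. Untreated cells held 48.2 and 48.6 CPM in the Cre-negative and 5.27 and 4.82 CPM in the Cre-positive line. With ethanol the values were 37.4 and 40.3 CPM against 5.93 and 5.56 CPM. With 4-OHT they were 32.0 and 31.8 CPM against 8.83 and 9.49 CPM. The lowest Cre-negative library (31.8 CPM) was above the highest Cre-positive library (9.49 CPM), and the gap between the lines was narrowest with 4-OHT.

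Fabp4 was 9.55-fold lower in Cre-positive than in Cre-negative cells when untreated (log2 -3.26, SE 0.0837, adjusted p = 1.96e-18), 6.77-fold lower with ethanol (log2 -2.76, adjusted p = 1.19e-17) and 3.49-fold lower with 4-OHT (log2 -1.80, adjusted p = 3.88e-15). In Cre-positive cells it rose 1.59-fold with 4-OHT against ethanol (log2 0.67, SE 0.0950, adjusted p = 1.07e-05) and 1.80-fold against untreated (log2 0.85, adjusted p = 1.06e-06). In Cre-negative cells it fell with 4-OHT against ethanol (log2 -0.29, SE 0.0618, adjusted p = 0.00743) and against untreated (log2 -0.60, adjusted p = 2.40e-07). The difference between these 4-OHT effects against ethanol was log2 0.96 (SE 0.113, adjusted p = 2.98e-06). The Cre-negative fall against ethanol did not pass without library 5 (log2 -0.30, adjusted p = 0.0579), 6 (log2 -0.29, adjusted p = 0.0543) or 10 (log2 -0.24, adjusted p = 0.126), whereas the Cre-positive rise against ethanol passed in all the alternatives run.

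Fabp4 was lower with ethanol than untreated in Cre-negative cells (38.9 ± 2.1 against 48.4 ± 0.23 CPM; log2 -0.32, SE 0.0595, adjusted p = 0.000431). In Cre-positive cells the ethanol change was log2 0.18 (adjusted p = 0.360). The ethanol effects differed between the lines by log2 0.50 (SE 0.129, adjusted p = 0.0111), or by 0.44 with adjusted p = 0.0647 without untreated Cre-positive library 8. In order of level, the Cre-negative groups ran from untreated through ethanol to 4-OHT, while the Cre-positive groups ran from 4-OHT down to ethanol (5.75 ± 0.26 CPM) and untreated (5.04 ± 0.32 CPM), the last pair being the neighbours that the test did not separate.

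Fabp5 (chromosome 3, 10012548-10016607, plus strand), the carrier first described in skin and made in many cell types, was well expressed in every library. Untreated cells held 81.6 and 83.4 CPM in the Cre-negative and 46.0 and 42.2 CPM in the Cre-positive line. With ethanol the values were 64.5 and 66.3 CPM against 45.0 and 38.6 CPM, and with 4-OHT 68.1 and 71.5 CPM against 52.4 and 51.3 CPM. All Cre-negative libraries lay above all Cre-positive ones, by less than for Fabp4. Fabp5 was lower in Cre-positive cells by log2 -0.90 untreated (SE 0.0605, adjusted p = 3.92e-11), -0.65 with ethanol (adjusted p = 6.07e-09) and -0.43 with 4-OHT (adjusted p = 1.31e-06).

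In Cre-positive cells Fabp5 rose 1.24-fold with 4-OHT against ethanol (log2 0.31, SE 0.0604, adjusted p = 0.000305) and by log2 0.23 against untreated (adjusted p = 0.00491), the latter lost without untreated library 8 (log2 0.16, adjusted p = 0.113). In Cre-negative cells its change against ethanol was log2 0.095 (adjusted p = 0.384). The difference of the 4-OHT effects missed the threshold (log2 0.22, adjusted p = 0.0539, 95% interval 0.046 to 0.39) and passed without ethanol library 3 (log2 0.32, adjusted p = 0.00435). Relative to untreated Cre-negative cells, Fabp5 was lower with ethanol (log2 -0.33, SE 0.0569, adjusted p = 0.000148) and with 4-OHT (log2 -0.24, adjusted p = 0.00414), and the latter was lost without library 5 (log2 -0.21, adjusted p = 0.0537). The ethanol effects of the lines differed by log2 0.25 (adjusted p = 0.0495). That call was lost with DESeq2 (adjusted p = 0.0734), with only the compared libraries in the fit (adjusted p = 0.0628), and without library 1, 2, 3, 8, 9 or 10 (log2 0.14 to 0.27).

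Fabp5 has 5 near-identical copies in the table, among them Gm6166 (98.3% identical over 409 bases, 13711 counts) and Gm14328 (97.3% over 408 bases, 5540 counts), so its reads could be split among them and its level is uncertain. Fabp5 itself held 48.8% to 50.4% of the summed CPM of this group of copies in every library. With the copies added to Fabp5, the 4-OHT change in Cre-positive cells was log2 0.32 (SE 0.0522, adjusted p = 5.28e-05) and the difference of the 4-OHT effects was log2 0.20 (adjusted p = 0.0470), which passed. The sum was chosen as an alternative after the data were seen.

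Plin2 (chromosome 4, 86648386-86670060, minus strand), the droplet coat protein of most cell types, was the member with the most counts, and it moved against Fabp4 and Fabp5 with 4-OHT in Cre-positive cells. Cre-negative libraries held 155 and 150 CPM untreated, 128 and 140 CPM with ethanol and 126 CPM in both 4-OHT libraries. Cre-positive libraries held 184 and 180 CPM untreated, 167 and 152 CPM with ethanol and 146 and 143 CPM with 4-OHT. In each line the untreated libraries were the highest. Plin2 was lower with ethanol than untreated in Cre-positive (log2 -0.19, SE 0.0467, adjusted p = 0.00685) and in Cre-negative cells (log2 -0.19, SE 0.0474, adjusted p = 0.00528), and these effects differed by log2 -0.0055 (95% interval -0.14 to 0.13).

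The Cre-positive ethanol effect on Plin2 was lost without library 4 (log2 -0.13, adjusted p = 0.139) or 7 (log2 -0.18, adjusted p = 0.0671), and the Cre-negative one without library 1 (log2 -0.16, adjusted p = 0.0610) or 9 (log2 -0.12, adjusted p = 0.150). With 4-OHT, Plin2 was lower than untreated by log2 -0.34 in Cre-positive (adjusted p = 6.12e-06) and -0.27 in Cre-negative cells (adjusted p = 0.000239). Against ethanol the 4-OHT change was log2 -0.14 in Cre-positive cells (SE 0.0464, adjusted p = 0.0184), lost without library 3 (log2 -0.10, adjusted p = 0.135), 11 (log2 -0.16, adjusted p = 0.0538) or 12 (log2 -0.13, adjusted p = 0.105). In Cre-negative cells it was log2 -0.085 (adjusted p = 0.343), and the difference of the effects was log2 -0.058 (adjusted p = 0.558, 95% interval -0.20 to 0.080). Plin2 was higher in Cre-positive than in Cre-negative cells by log2 0.26 untreated (adjusted p = 8.85e-05), 0.25 with ethanol (adjusted p = 9.39e-05) and 0.19 with 4-OHT (adjusted p = 0.00118), the reverse of the direction of Pparg, Fabp4 and Fabp5.

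**Figure D2:**
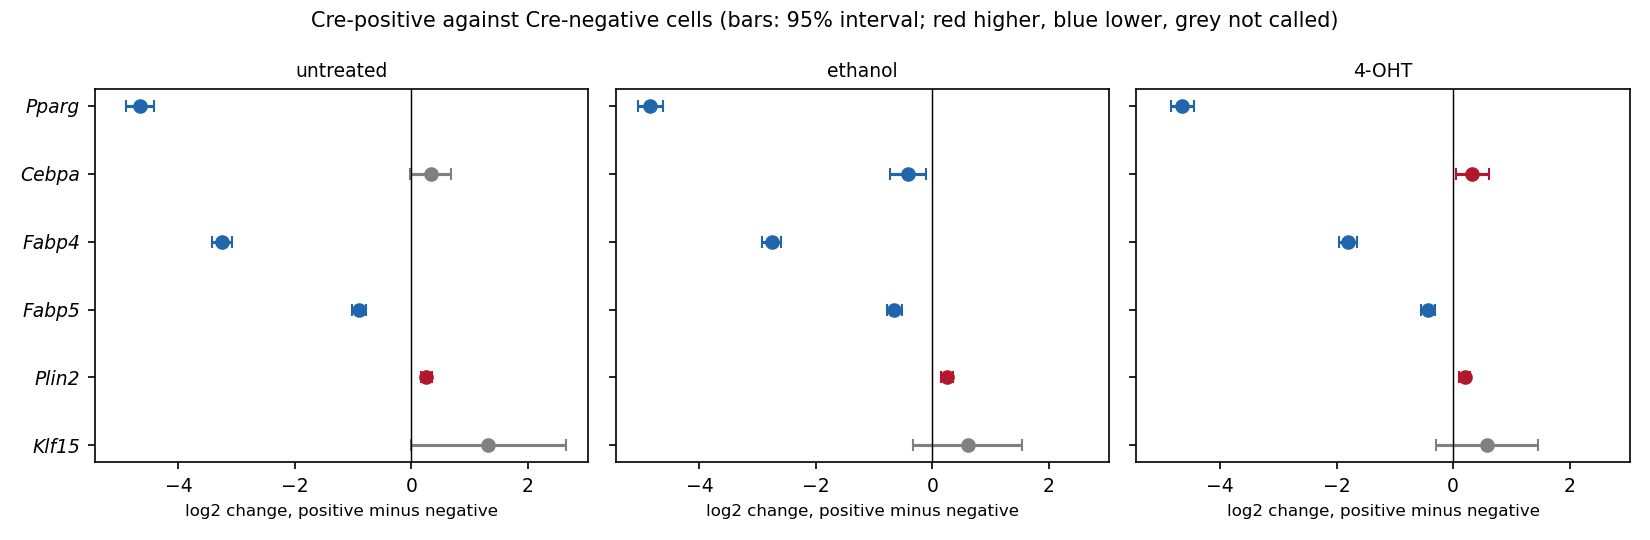
Log2 change (horizontal axis, Cre-positive minus Cre-negative) of the 6 tested members in untreated, ethanol-treated and 4-OHT-treated cells, with 95% intervals; red is called higher, blue called lower and grey not called. Pparg stays between -4.84 and -4.65, Fabp4 moves from -3.26 untreated to -1.80 with 4-OHT, and Plin2 lies above 0 in all 3 panels.

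The remaining 4 members were too low to test. Lpl (chromosome 8, 68880491-68907448), the lipase that frees fatty acids from circulating lipoproteins, had 69 counts in all, between 1 and 13 a library. It had 1, 6, 1, 5, 6 and 5 counts in the Cre-negative libraries (untreated, ethanol, 4-OHT) and 6, 5, 13, 7, 8 and 6 in the Cre-positive ones in the same order. Without the filter on low counts Lpl was called in 1 comparison, higher in Cre-positive than in Cre-negative cells given ethanol (log2 1.65, adjusted p = 0.0487), on 13 and 7 against 1 and 5 counts. Cd36 (chromosome 5, 17781690-17888801), the fatty acid translocase, had 6 counts, 2 in each of 3 libraries and 0 in the other 9. Adipoq (chromosome 16, 23146536-23158028) had at most 2 counts in a library and 0 in 6 libraries, and Plin1 (chromosome 7, 79720218-79732903), the coat protein of the large droplets of fat cells, had at most 1 count and 0 in 8 libraries. At these depths no change in Adipoq, Cd36 or Plin1 was detectable.

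**Figure D3:**
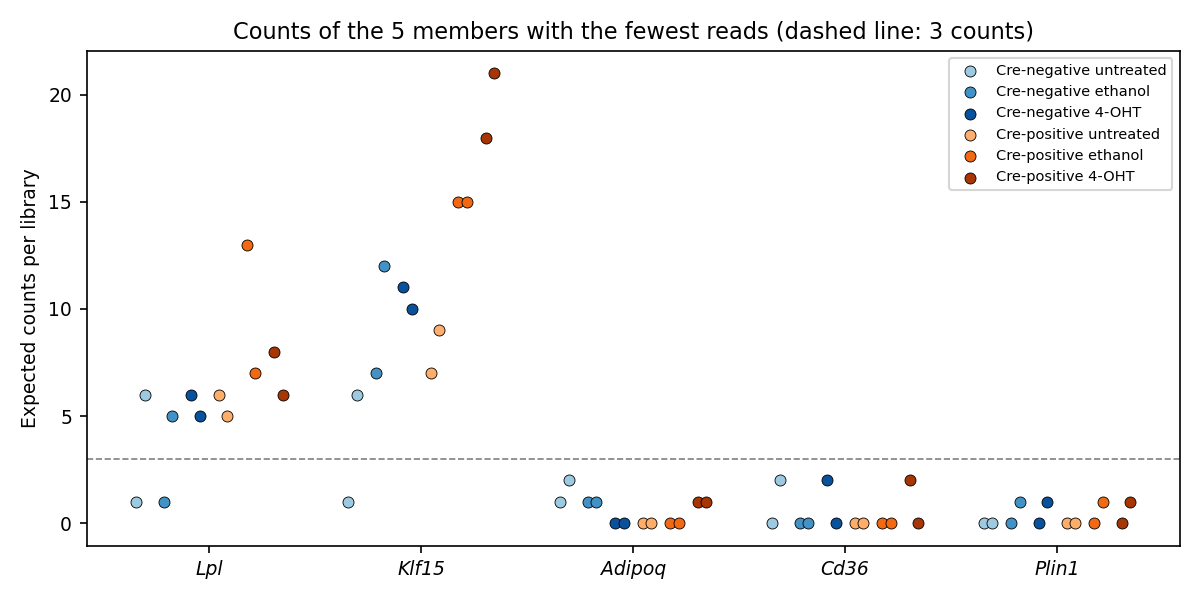
Expected counts per library (vertical axis) of the 5 members with the fewest counts, coloured by group; the dashed line marks 3 counts. Adipoq, Cd36 and Plin1 stay at or below 2 counts in every library, and Klf15 reaches 21 and Lpl 13.

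Counted by comparison, 3 of the 6 tested members were higher and 1 was lower with 4-OHT than with ethanol in Cre-positive cells, where 38.3% of all tested genes were called (21.1% higher and 17.2% lower). The members' median change was log2 0.29 beside 0.026 over all genes. In Cre-negative cells the same contrast called 0 members higher and 1 lower by edgeR, by DESeq2 and at an unadjusted p under 0.05 alike (5.99% of all genes called, 3.33% higher and 2.65% lower), and the median over members was 0.00053. The difference of the 4-OHT effects called 2 members higher and 0 lower by edgeR and by DESeq2, or 3 and 0 at an unadjusted p under 0.05 (28.3% of all genes called, 14.5% higher and 13.8% lower). No member changed 2-fold or more in any contrast of treatments that was called.

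Against untreated cells, 4-OHT called 3 members higher and 1 lower in Cre-positive cells (39.2% of all genes called, 21% higher and 18.2% lower). In Cre-negative cells it called 2 higher and 3 lower (19.2%, with 10.1% higher and 9.14% lower). Ethanol called 0 higher and 1 lower in Cre-positive cells by edgeR, by DESeq2 and at an unadjusted p under 0.05 (14.9%, with 8.11% higher and 6.84% lower) and 2 higher and 3 lower in Cre-negative cells (24.5%, with 12.5% higher and 12% lower). The difference of the ethanol effects called 2 higher and 1 lower (16.3%, with 8.32% higher and 7.98% lower). These contrasts share libraries: those against ethanol and against untreated have their 4-OHT libraries in common, and the ethanol libraries serve in both kinds of contrast.

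Between the lines, 1 member was higher and 3 lower in Cre-positive cells when untreated (49% of all genes called, 24.4% higher and 24.6% lower). With ethanol 1 was higher and 4 lower (54.5%, with 26.4% higher and 28.1% lower), and with 4-OHT 2 were higher and 3 lower (60.7%, with 30.5% higher and 30.2% lower). In the untreated cells 14.4% of all tested genes differed 2-fold or more between the lines, called or not; of the members Pparg, Fabp4 and Klf15 (2.49-fold) did so, and Klf15 was not called.

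**Figure D4:**
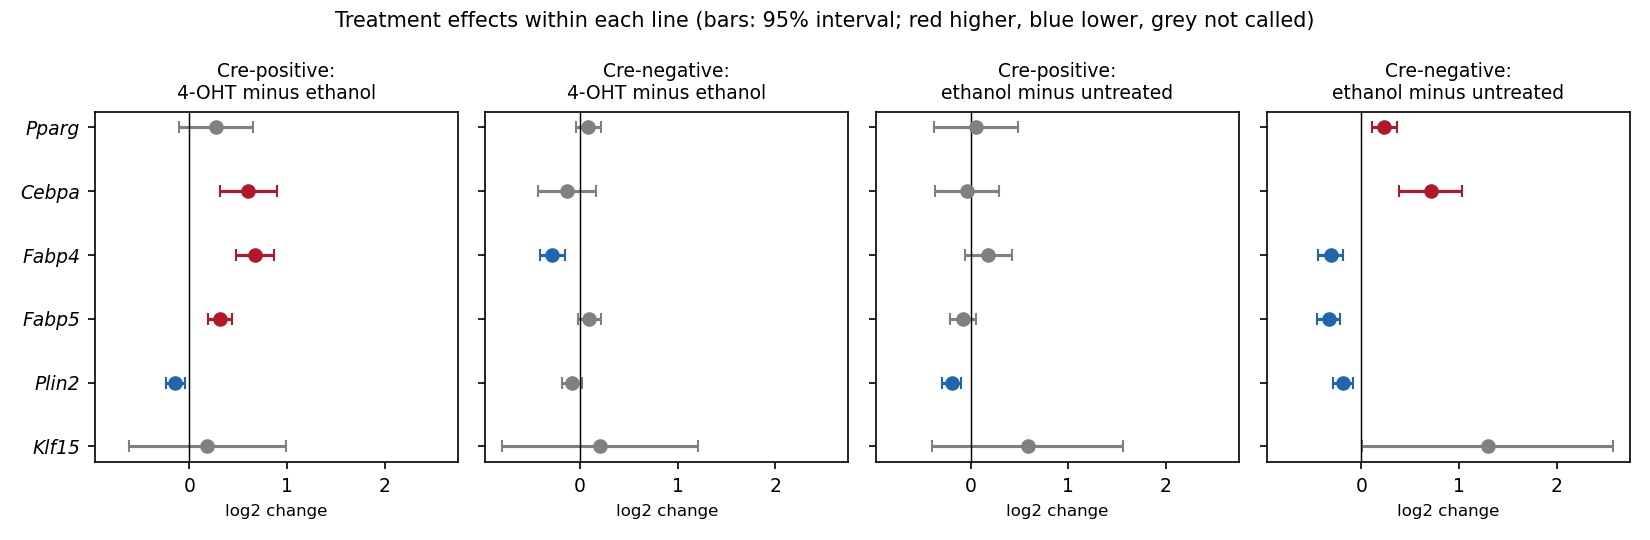
Log2 change (horizontal axis) of the 6 tested members with 4-OHT against ethanol and with ethanol against untreated cells in each line, with 95% intervals; red is called higher, blue called lower and grey not called. Fabp4 is at 0.67 with 4-OHT in Cre-positive and at -0.29 in Cre-negative cells, and Klf15 has the widest intervals.

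The factors that act before Pparg and Cebpa were present in both lines. The counts for the lists that follow are to be read against the shares over all genes, which were 38.3% called with 4-OHT against ethanol in Cre-positive cells (21.1% higher and 17.2% lower), 5.99% in Cre-negative cells, and 49% between the untreated lines (24.4% higher and 24.6% lower). Of 25 tested adipogenic transcription factors other than the members, 7 rose and 2 fell with 4-OHT against ethanol in Cre-positive cells (median log2 -0.015), a share near that of all genes, and 0 of 25 were called in Cre-negative cells by edgeR or by DESeq2, where 1 was higher and 7 were lower at an unadjusted p under 0.05. Cebpd stood at 48.5 ± 1.2 CPM with ethanol and 111 ± 1.6 CPM with 4-OHT (log2 1.19, adjusted p = 2.31e-11), and Cebpb at 50.6 ± 5.3 and 80.2 ± 6.3 CPM (log2 0.67, adjusted p = 3.69e-07). Their 4-OHT effects differed between the lines by log2 1.43 (adjusted p = 4.83e-08) and 0.86 (adjusted p = 6.11e-06). Cebpd was also higher in untreated Cre-positive than Cre-negative cells (45.1 ± 5.2 against 12.9 ± 0.81 CPM; log2 1.81, adjusted p = 1.17e-13), the reverse of Pparg. Klf5, a Krüppel-like activator of Pparg, fell by 0.39 on the log2 scale in Cre-positive cells (adjusted p = 0.00375), and Srebf1, which drives lipid synthesis genes, fell by 0.14 (adjusted p = 0.0151). The Klf5 call was lost without library 4 (adjusted p = 0.105) or 11 (adjusted p = 0.0589) and against ethanol and untreated as 1 reference (log2 -0.17, adjusted p = 0.122), and the Srebf1 call without library 12 (adjusted p = 0.0984).

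Of 25 tested repressors of fat cell formation, 11 rose and 4 fell with 4-OHT against ethanol in Cre-positive cells by edgeR (median log2 0.15). By DESeq2, 5 rose and 4 fell. Klf2, which represses Pparg, rose from 13.8 ± 0.094 to 23.2 ± 0.27 CPM (log2 0.74, adjusted p = 1.37e-06), and Sox9 rose by log2 0.53 (adjusted p = 0.00590; 0.129 without library 3 and 0.0549 without library 12). Twist2, a repressor of the helix-loop-helix family, fell by 0.37 on the log2 scale (adjusted p = 0.000594). Activators and repressors of the programme thus both had members that rose and members that fell. In untreated cells, 13 repressors were higher and 5 lower in the Cre-positive line (median log2 0.31).

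Among 11 tested lipid droplet and lipolysis genes, 5 rose and 2 fell with 4-OHT in Cre-positive cells (median log2 0.10). Plin4, a perilipin of fat and muscle cells, shared directions with Fabp4 between the lines and with 4-OHT against ethanol, but not with ethanol. It was at 92.4 ± 1.2 CPM in untreated Cre-negative and 4.94 ± 0.52 CPM in untreated Cre-positive cells (log2 -4.21, adjusted p = 2.15e-20). With 4-OHT it rose in Cre-positive cells (log2 0.70, adjusted p = 0.000103) and fell in Cre-negative cells (log2 -0.20, adjusted p = 0.0236), a difference of log2 0.90 (adjusted p = 3.11e-05). With ethanol against untreated, Plin4 rose in Cre-negative cells (log2 0.22, adjusted p = 0.00313), where Fabp4 fell, and its ethanol effects differed between the lines by log2 -0.54 (adjusted p = 0.0151). Bscl2 (seipin) rose by log2 0.53 (adjusted p = 0.000118). Pnpla2, the first lipase of triglyceride breakdown, fell by 0.30 (adjusted p = 0.0208; 0.0832 with DESeq2, and 0.123, 0.0880 and 0.0722 without library 3, 11 or 12), and Plin3 fell by 0.15 (adjusted p = 0.0295; 0.297 and 0.189 without library 3 or 12).

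Genes of lipid synthesis fell more often than they rose with 4-OHT in Cre-positive cells. Of 22 tested genes of triglyceride and fatty acid synthesis, 13 fell and 4 rose (median log2 -0.17), against 1 that fell and 6 that rose in Cre-negative cells (median log2 0.061). Fasn, the fatty acid synthase, fell from 470 ± 45 to 306 ± 0.99 CPM in Cre-positive cells (log2 -0.62, adjusted p = 6.64e-09) and was at log2 0.078 in Cre-negative cells (adjusted p = 0.416). The difference was log2 -0.70 (adjusted p = 4.09e-07). Lpin1, which makes diacylglycerol, fell by 0.46 on the log2 scale (adjusted p = 9.37e-05). Dgat2, which makes triglyceride, rose by log2 0.57 (adjusted p = 0.000910) and Agpat3 by 0.17 (adjusted p = 0.00520; 0.0919 without library 3).

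Of 23 tested genes of fatty acid uptake and handling, 10 fell and 1 rose with 4-OHT in Cre-positive cells (median log2 -0.047). Lipg, the endothelial lipase, fell from 38.8 ± 3.05 to 24.5 ± 0.25 CPM (log2 -0.67, adjusted p = 1.47e-06), and in Cre-negative cells it rose (log2 0.71, adjusted p = 0.00521). Cav1, the caveolar coat protein, fell from 913 ± 22 to 634 ± 8.0 CPM (log2 -0.53, adjusted p = 5.38e-10). With ethanol in Cre-negative cells, 13 of 22 synthesis genes and 9 of 23 uptake genes were lower than in untreated cells, and 2 and 4 were higher. Of all tested genes, 24.5% were called in that contrast (12.5% higher and 12% lower).

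**Figure D5:**
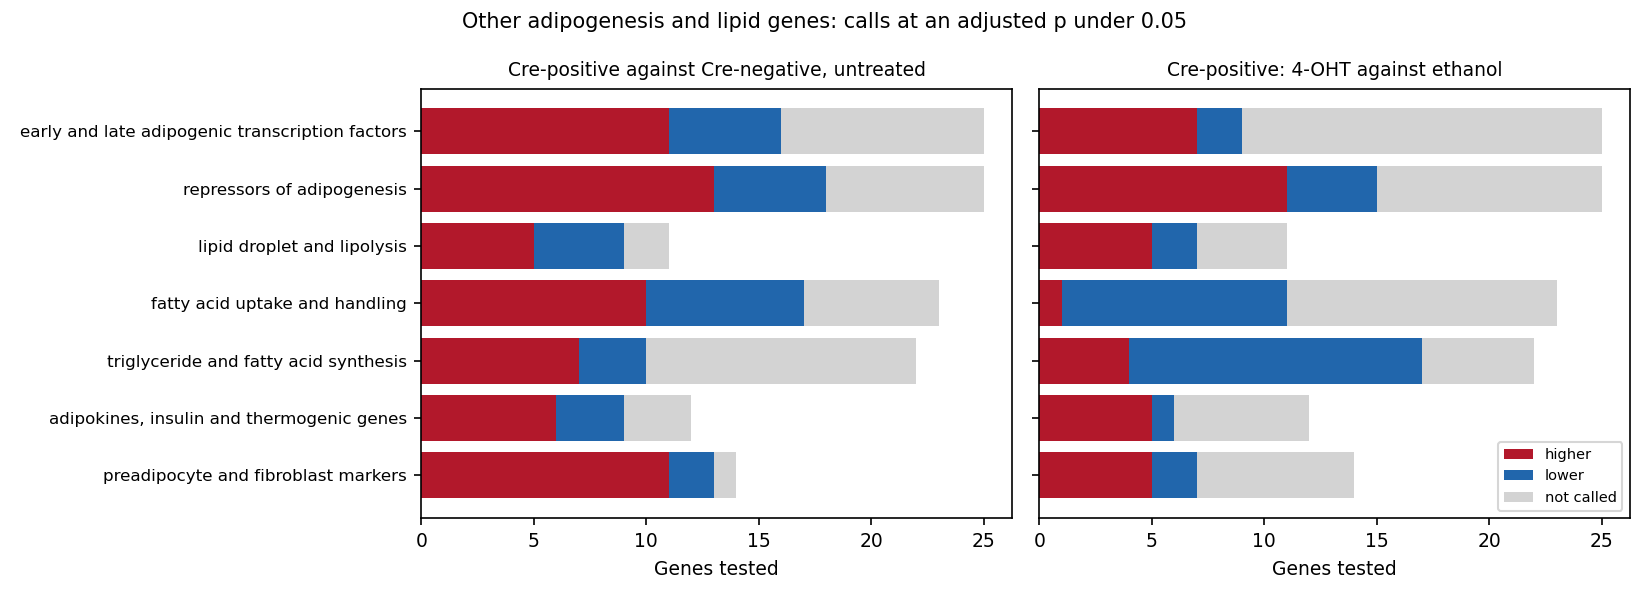
Number of tested genes (horizontal axis) of 7 lists around the members that were called higher (red), lower (blue) or not called (grey), between the untreated lines (left) and with 4-OHT against ethanol in Cre-positive cells (right). On the right, 13 of 22 synthesis genes are lower; on the left, 11 of 14 preadipocyte and fibroblast markers are higher.

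Among 12 tested genes of adipokines, insulin signalling and heat production, 5 rose and 1 fell with 4-OHT in Cre-positive cells (median log2 0.16). Adipor1, an adiponectin receptor, rose by log2 0.25 (adjusted p = 0.000178), Nampt by 0.21 (adjusted p = 0.000257), and the insulin receptor gene Insr fell by 0.31 (adjusted p = 0.000461). Of 14 tested preadipocyte and fibroblast markers, 5 rose and 2 fell (median log2 0.044), with Cd24a at log2 0.62 (adjusted p = 3.05e-10) and Cd34 at -0.36 (adjusted p = 2.31e-05). Ly6a (Sca-1) was at log2 0.44 against ethanol (adjusted p = 0.000848) but at -0.80 against untreated cells, its untreated level being 28.2 ± 1.4 and its ethanol level 12.0 ± 0.13 CPM. Between the untreated lines 11 of these markers were higher and 2 lower in Cre-positive cells (median log2 1.01), led among the named genes by Cd34 with 68.9 ± 0.42 against 1.80 ± 0.24 CPM (log2 5.24, adjusted p = 3.97e-21).

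Other cell types that use the members were looked for by their markers. Macrophages also use Fabp4, Cd36 and Lpl, and the sum over 11 macrophage markers was 4.50 to 5.74 CPM in the Cre-negative and 3.74 to 4.56 CPM in the Cre-positive libraries. Tyrobp was at 0 in all libraries, Adgre1 had 1 count and Ptprc 12 counts in all, and 0 of 3 tested markers were called with 4-OHT in Cre-positive cells by edgeR, by DESeq2 or at an unadjusted p under 0.05 (Cd68 log2 -0.29, adjusted p = 0.189). Lyz2 (91 counts in all) was at 0.441 to 0.751 CPM in Cre-negative and 0 to 0.0491 CPM in Cre-positive libraries, the direction of Fabp4. Csf1r (0.176 to 0.388 against 0.368 to 0.499 CPM) and Cx3cr1 (0.0991 to 0.264 against 0.221 to 0.369 CPM) leaned the other way. Between the lines, 1 of 3 tested macrophage markers was lower in Cre-positive cells and 0 were higher in each treatment, where 24.6% to 30.2% of all genes were lower. Endothelial cells also use Fabp4, and the sum over 10 endothelial markers was 6.30 to 9.27 CPM in Cre-negative libraries, 15.8 to 19.9 CPM in untreated and ethanol-treated Cre-positive libraries and 23.9 to 24.2 CPM in Cre-positive 4-OHT libraries. Most of that difference was Flt1, at 0.528 to 0.968 CPM in Cre-negative and 9.98 to 16.5 CPM in Cre-positive libraries. Without Flt1 the sums ran from 5.77 to 8.49 CPM over all libraries and, in Cre-positive cells, from 5.77 to 5.78 CPM with ethanol and from 7.72 to 7.90 CPM with 4-OHT, and Cdh5 and Pecam1 had 6 and 49 counts in all. With 4-OHT against ethanol in Cre-positive cells, 2 of 5 tested endothelial markers were higher by edgeR and 0 by DESeq2. They were Flt1 (log2 0.38, adjusted p = 0.00702; 0.0812 with DESeq2 and 0.216 without library 3) and Tek (log2 1.12, adjusted p = 0.0204), the latter named after its value was seen. With Flt1, the endothelial sum was lower where Fabp4 was higher between the lines, and both were higher with 4-OHT in Cre-positive cells. Without Flt1, the ethanol sums were 7.66 to 8.49 CPM in Cre-negative and 5.77 to 5.78 CPM in Cre-positive libraries, the direction of Fabp4. The untreated sums without Flt1 overlapped (5.77 to 6.20 and 5.85 to 7.24 CPM). With 4-OHT they were 6.01 to 6.89 CPM in Cre-negative and 7.72 to 7.90 CPM in Cre-positive libraries, the reverse. The part of macrophages and endothelial cells in the Fabp4 result was not tested.

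Muscle markers (10 genes) summed to 7.85 to 8.31 CPM in Cre-positive ethanol and 11.3 to 11.5 CPM in Cre-positive 4-OHT libraries, with Myf5 at 0 and Myod1, Myog and Pax7 at 3 or 4 counts in all. All 3 tested muscle markers rose there by edgeR and 1 by DESeq2, among the 3 Tnnt2 (log2 0.94, adjusted p = 0.00416; 0.0505 without library 3 and 0.202 with the joint reference) and Acta1 (log2 0.42, adjusted p = 0.00843; 0.0940 with DESeq2 and 0.0737 without library 3). Of 6 tested cartilage and bone markers 1 rose and 1 fell, the latter being Runx2 (log2 -0.27, adjusted p = 0.0219; 0.140 with DESeq2, and 0.371 and 0.124 without library 4 or 11). The only tested epithelial marker, Cdh1, was at log2 0.66 (adjusted p = 0.157; 0.0127 without library 4). Their part in the members' changes was not tested.

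The genes whose log2 CPM ran most like each member were found by Pearson's r over the 12 libraries among genes with an average log2 CPM of at least 1. Since the libraries fall into the 2 lines, r is given within each line of 6 libraries and is a description only. For Pparg these were Foxd1 (r = 0.947 in Cre-negative and 0.791 in Cre-positive libraries), Aim2 (0.583 and 0.886) and Thbd (0.813 and 0.750), which like Pparg were high in Cre-negative cells (26.9, 28.9 and 24.0 CPM) and low in Cre-positive cells (1.04, 0.492 and 0.0760 CPM). For Fabp4 they were Prdx4 (0.889 and 0.944), Hddc2 (0.783 and 0.934) and Sirt1 (0.845 and 0.965), the last of which is among the listed repressors. Cebpa ran with Zkscan14 (0.973 and 0.976), Zfp128 and Coq6, and Plin2 with Ppp2r4 (0.979 and 0.968), 0610007P14Rik and Clic1. Fabp5 ran with its own copies Gm6166 (0.970 and 0.963) and Gm14328, then Apex1, and Klf15 with Spef1 (0.965 and 0.797), Clptm1 and Scaf1. The libraries of a line share their cells, and each r rests on 6 libraries in 3 groups.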

How the data were processed

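The authors deposited expected counts per gene symbol in whole numbers, 1 column for each of the 12 libraries. Adapter trimming software, aligner and quantifier are listed as cutadapt (1.11), STAR (2.5.2a) and RSEM (1.2.30) with edgeR (no version) and the GRCm38 build, per the submitters' processing notes. No source used here gives the annotation, the strand setting or the step that made the values whole. Symbols were matched to GENCODE M21 (45126 of 47517 matched 1 gene, the 10 members among them).

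In R 4.3.3 with edgeR 4.0.16, genes passing filterByExpr (minimum count 10, minimum total 15; 17609 genes) were scaled by TMM (factors 0.972 to 1.02) and fitted with 1 mean per group over all 12 libraries, with a common dispersion of 0.00119. Comparisons were 2-sided quasi-likelihood F tests, Benjamini-Hochberg adjusted over all tested genes, threshold 0.05. Standard errors came from the F statistic. Replicate libraries differed by a chi-square per degree of freedom of 2.52 to 5.03, above sampling noise, and were counted separately. The code was tested on simulated counts. A floor of 3 counts stands for a group at 0 and covers counting error only.

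The members and gene lists were chosen with earlier results of these data known. From each list at most 2 genes per direction were named, those with the largest change with 4-OHT against ethanol in Cre-positive cells among genes that passed, reached an average of 1 in log2 CPM and did not overlap between the groups, or else the gene with the smallest p. A gene that this rule names is not reported here. For each tested member the 3 most similar genes were named. Near-identical copies shared at least 90% identity over 80% of the shorter transcript. Alternatives were RLE size factors, DESeq2 1.42.0, no filter, only the compared libraries, each library left out in turn, and ethanol and untreated cells as 1 reference.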

Additional observations from a re-analysis of the deposited data

Results flagged for a closer look

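The 4-OHT effect differed between the lines, by the test of the difference itself, for Fabp4 (log2 0.96, adjusted p = 2.98e-06, higher in 2 of 2 Cre-positive and lower in 2 of 2 Cre-negative 4-OHT libraries than in both ethanol libraries) and for Cebpa (log2 0.74, adjusted p = 0.00827, with the same order of libraries; log2 0.57 and adjusted p = 0.0575 without library 4). Pparg, Fabp5 and Plin2, whose 4-OHT effects did not differ by this test, also had 4-OHT and ethanol libraries without overlap in both lines. The order of libraries therefore does not set Fabp4 and Cebpa apart, and no share over all genes is given for it. The ethanol effect differed between the lines for Cebpa (log2 -0.75, adjusted p = 0.0259), Fabp4 (log2 0.50, adjusted p = 0.0111) and Fabp5 (log2 0.25, adjusted p = 0.0495). The Cebpa ethanol difference did not pass with DESeq2 (adjusted p = 0.0800) or without library 1, 2, 4, 8 or 9 (adjusted p = 0.0523 to 0.133). Groups of 2 libraries are too small for a check of single libraries against their group.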

How the results depend on the processing

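Of 39 called member results, 23 kept their call and direction in every alternative that was run, 16 lost the call in at least 1 and 0 changed direction; of 27 that were not called, 5 gained a call in at least 1. Among 30 named genes of the other lists, 12 changed their call or direction in at least 1 alternative. No paired analysis was possible because the groups share no replicate number: each library number occurs once in the series. The cause of the changes below was not tested.

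In Cre-negative cells, 4-OHT against ethanol called 1054 genes, 1609 with only the compared libraries in the fit, 1733 against ethanol and untreated as 1 reference, and 301 to 609 with a library left out; with the joint reference 1 member was higher and 2 lower, Cebpa was at log2 0.22 and Fabp5 at -0.0725, and 0 to 1 member was lower with a library left out. The joint reference put Ly6a at -0.18 in Cre-positive cells. DESeq2 called 1 member higher for ethanol in Cre-negative cells, 1 higher between the 4-OHT lines, and 1 higher and 0 lower for the difference of the ethanol effects; with only the compared libraries 1 was higher in that difference, and without the filter 2 members were higher between the ethanol lines.

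With a library left out, 4-OHT against untreated in Cre-negative cells called 2164 to 2467 genes and 1 to 1 member higher. Ethanol against untreated called 2759 to 3284 genes and 1 to 2 members higher in Cre-negative cells, and 1423 to 2490 genes and 0 to 1 member lower in Cre-positive cells. 4-OHT against ethanol in Cre-positive cells called 0 to 1 member lower. Members higher between the lines numbered 1 to 2 in each treatment. The difference of 4-OHT effects called 1 to 3 members higher, and that of ethanol effects 1792 to 3077 genes, 0 to 2 members higher and 0 to 1 lower.

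Beside Ly6a, the results that changed sign were member changes that were not called. With a library left out, Klf15 ran from -0.0705 to 0.5391 in Cre-negative and from -0.0475 to 0.4045 in Cre-positive cells (4-OHT against ethanol) and from -0.3762 to 0.2324 for the difference. For ethanol against untreated in Cre-positive cells Cebpa ran from -0.2155 to 0.1382, Fabp5 from -0.1895 to 0.0247 and Pparg from -0.0713 to 0.1893. The Plin2 difference of ethanol effects turned to 0.0013 with RLE, 0.0024 without the filter and 0.0017 with DESeq2, and ran from -0.0776 to 0.0611 with a library left out. Depth limits Klf15, Lpl, Adipoq, Cd36 and Plin1 in all libraries and Pparg in Cre-positive cells.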
